A study of Homo sapiens with 15 samples.

Results

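The metallothioneins are small, cysteine-rich proteins that bind zinc and copper, buffer the free metal inside the cell and take up toxic cadmium. Their genes are switched on by the zinc-sensing transcription factor MTF1, which binds short metal response elements in their promoters, and by glucocorticoids. In brain they are expressed mainly by astrocytes. The members were chosen by symbol, MT1 or MT2 followed by 1 letter, which leaves out the mitochondrially encoded genes whose symbols begin with MT and a hyphen. The rule found 8 genes of the 16324 listed in either of the 2 deposited count tables: MT2A, MT1E, MT1X, MT1L, MT1F, MT1A, MT1M and MT1G. All 8 are listed in both tables, and all 8 passed the filter on low counts in every main fit. Among the alternative fits, MT1G and MT1M fell below a filter of a mean of at least 20 counts. MT1G also dropped out at day 7 without the batch term. MT1L is annotated as a transcribed pseudogene, and the other 7 encode proteins.

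The cells were immortalized human astrocytes (IHA), an established line of fetal origin immortalized with SV40, in which 1 µg/ml doxycycline switches on mutant IDH1 (R132H, per the series' design text). Wild-type IDH1 makes alpha-ketoglutarate in the cytosol, and the mutant enzyme makes 2-hydroxyglutarate. The groups were 4 libraries at day 3 of doxycycline (tagged b2), 5 at day 7 (1 tagged b1 and 4 tagged b2) and 6 without doxycycline (3 of b1 and 3 of b2), and the labels do not explain the tags b1 and b2. Every sample carries the genotype label WT IDH1, the untreated samples have no stated day, and cells lacking the inducible gene were not treated with doxycycline, so the drug and the mutant enzyme cannot be told apart. All libraries came from 30 ng of total RNA by a bulk form of MARS-seq, which tags the 3′ end of each transcript with a unique molecular identifier (UMI), so that 1 count stands for 1 molecule whatever the length of the gene. In bulk RNA, fewer expressing cells and less RNA per cell cannot be told apart. The labels do not say that libraries of a group came from separate cultures, so p-values measure the spread between these libraries, which may be technical.

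The table of untreated and day 7 libraries (the day 7 table) holds 11 libraries of 2573290 to 5567651 UMIs, and the table with day 3 holds 11 libraries of b2 of 1816599 to 4656705 UMIs. The 2 tables share 7 b2 libraries but were counted and scaled apart, so levels are compared only within a table. The day 3 libraries were the shallower ones, with 1816599 to 2725520 UMIs, against 2266129 to 4369979 in untreated b2 libraries. Of 12 astrocyte markers, GFAP, AQP4, ALDH1L1 and SLC1A2 are listed in neither table, S100B had 0 to 8 UMIs, and VIM, CD44, SOX9 and GJA1 were present in every library. Endogenous and induced IDH1 tags are not separated in the tables, and the log2 change of IDH1 was 0.21 ± 0.14 (SE) at day 3 and 0.22 ± 0.11 at day 7, neither past the threshold by edgeR (adjusted p = 0.494 and 0.178).

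All 8 genes lie in 1 cluster on chromosome 16 (GRCh38, GENCODE annotation), from 56608199 to 56684196, a span of 75998 bp. MT1G lies on the minus strand and the others on the plus strand. MT2A spans 56608199 to 56609497, MT1E 56625475 to 56627112 and MT1X 56682424 to 56684196, each with 3 exons in the transcript used. The coding sequence has 186 bases with the stop codon in each of the 7 protein-coding members and holds 20 cysteine codons among 61. The coding sequences of the 2 most abundant members are shown with the cysteine codons, whose side chains bind the metal, in capitals.
MT2A: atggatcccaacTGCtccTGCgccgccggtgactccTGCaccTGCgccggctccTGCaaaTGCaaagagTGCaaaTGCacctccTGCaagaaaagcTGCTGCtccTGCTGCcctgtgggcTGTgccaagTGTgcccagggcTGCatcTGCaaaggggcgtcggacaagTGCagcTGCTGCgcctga
MT1E: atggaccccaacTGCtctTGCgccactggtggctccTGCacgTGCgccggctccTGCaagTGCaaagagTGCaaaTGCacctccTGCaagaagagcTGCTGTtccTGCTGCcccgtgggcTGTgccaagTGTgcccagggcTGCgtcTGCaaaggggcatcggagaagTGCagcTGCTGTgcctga
MT2A and MT1E are identical at 92.5% of coding bases, and pairs of coding members range between 88.7% and 95.2%. In the last 150 bases of the transcript, where the tags lie, identity between pairs of members ranged between 64.0% and 87.7%, with MT1E and MT1M the closest pair. Counts of MT1E, MT1M and MT1L are therefore uncertain, since reads in shared stretches could be split between them.

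Promoters were available for MT2A and MT1X, from RefSeq on GRCh38.p14, as 250 bases before and 50 after the RefSeq start on the plus strand. That start lies at 56608584 for MT2A and 56682470 for MT1X, 385 and 46 bases downstream of the gene starts in the GENCODE annotation given above. They are shown because metal response elements, the sites MTF1 binds, set how these genes answer zinc. Capitals mark every match, on either strand, to TGCACNC or TGCGCNC, the core letters of such an element. The windows are chr16:56608334-56608633 for MT2A and chr16:56682220-56682519 for MT1X.
MT2A: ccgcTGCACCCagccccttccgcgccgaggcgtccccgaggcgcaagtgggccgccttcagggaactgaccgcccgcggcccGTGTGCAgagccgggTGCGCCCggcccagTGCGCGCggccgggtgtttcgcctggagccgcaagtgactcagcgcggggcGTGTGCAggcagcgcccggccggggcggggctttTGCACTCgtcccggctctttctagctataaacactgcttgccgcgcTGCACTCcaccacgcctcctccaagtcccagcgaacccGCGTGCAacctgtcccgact
MT1X: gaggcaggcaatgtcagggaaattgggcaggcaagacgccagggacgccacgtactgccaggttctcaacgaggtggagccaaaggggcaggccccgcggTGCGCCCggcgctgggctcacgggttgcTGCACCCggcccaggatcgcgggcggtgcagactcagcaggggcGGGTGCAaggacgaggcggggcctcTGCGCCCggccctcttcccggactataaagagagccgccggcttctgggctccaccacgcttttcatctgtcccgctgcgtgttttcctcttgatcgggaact
The MT2A window holds 8 matches, none overlapping another, and 0.02% of 35116 RefSeq promoter windows of the same length hold at least as many. The MT1X window holds 4, and 0.6% of windows hold at least as many. At least 1 match stood in 29.6% of windows. A match is a description of letters and shows no binding.

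MT2A dominated the family in every library. It was the gene with the second highest mean share of UMIs among the 15230 genes of the day 7 table and again among the 12575 of the other, at 0.635% to 1.05% and 0.606% to 0.917% of a library's UMIs. It supplied 95.5% to 97.3% of the family's UMIs, and MT1E, next in order, 1.32% to 3.02%. Levels are given as CPM, UMIs scaled to a common total after division by the library's TMM-scaled size. In untreated b2 libraries of the table with day 3, MT2A averaged 8311 ± 645 CPM, MT1E 197 ± 11.8, MT1X 55.8 ± 0.896, MT1L 19.5 ± 4.10, MT1A 16.2 ± 1.97, MT1F 14.8 ± 3.02, MT1G 5.22 ± 1.81 and MT1M 3.85 ± 0.504 (SD, n = 3). The ranges of the first 3 do not overlap, while those of MT1L, MT1A and MT1F overlap one another, as do those of MT1G and MT1M. MT1G and MT1M rest on 6 to 22 and 5 to 26 UMIs per library, and their values are correspondingly imprecise.

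After 3 days of doxycycline the 2 most abundant metallothioneins were lower. MT1E had 160.0, 136.3, 131.1 and 152.8 CPM in the day 3 libraries 9 to 12, against 184.7, 197.6 and 208.3 CPM in the untreated b2 libraries 1, 2 and 4. All 4 day 3 libraries lay below all 3 untreated ones, and MT1E fell by 0.44 ± 0.08 on the log2 scale (SE; 1.36-fold lower; adjusted p = 0.00125, edgeR quasi-likelihood test with Benjamini-Hochberg adjustment over all genes). MT2A had 6889, 6036, 6870 and 6967 CPM in the day 3 libraries, against 8087, 7808 and 9037 CPM in the untreated b2 libraries. Again the groups did not overlap, and MT2A fell by 0.31 ± 0.08 (SE; 1.24-fold lower; adjusted p = 0.0238). The shallowest untreated library, number 4 with 2266129 UMIs, had the highest MT2A and MT1E of the untreated libraries. In the day 7 table library 4 again had the highest MT2A of the untreated b2 libraries. Its MT1E there was 155.6 CPM, below the 172.4 CPM of library 2. The part of depth in the fall was not tested. Summed levels of other markers also moved at day 3. Neuron markers (2 of 6 listed in that table, RBFOX3, SYP, MAP2 and DCX not among them) summed to 119 to 133 CPM at day 3. Without doxycycline they summed to 76.8 to 90.9 CPM. That sum was mostly 1 gene, TUBB3, with 68.4 to 160 CPM over all libraries of that table, while SNAP25 had 6.32 to 9.12 CPM. Fibroblast and pericyte markers (5 of 9 listed, COL3A1, DCN, LUM and RGS5 not among them) summed to 1115 to 1154 CPM, against 1311 to 1381 CPM. The largest part of that sum was THY1, with 477 to 630 CPM over all libraries of that table. The part of these markers in the changes was not tested. Summed over the 8 genes, the family took 0.629% to 0.712% of UMIs at day 3, against 0.835% to 0.950% without doxycycline.

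These 2 of the 8 members were called lower at day 3 and none higher, where 1.67% of the 10586 genes tested were called lower. All 8 log2 changes were below 0, as were 49.1% of those of all genes tested. The median of the 8 was -0.41, against a median of 0.00497 over all genes tested. MT1L had 11.7 to 14.6 CPM at day 3, against 15.2 to 23.4 CPM in untreated libraries, which do not overlap, and its log2 change of -0.56 ± 0.19 missed the threshold (adjusted p = 0.114). MT1F had a log2 change of -0.49 ± 0.20 (adjusted p = 0.203), MT1A of -0.38 ± 0.18 (adjusted p = 0.291) and MT1X of -0.19 ± 0.10 (adjusted p = 0.375), each with day 3 and untreated libraries that overlapped. MT1M and MT1G, the 2 members with the fewest UMIs, had log2 changes of -0.47 ± 0.35 and -0.29 ± 0.34 (adjusted p = 0.551 and 0.725, edgeR). The call of MT1E held in 13 of 13 alternatives, with adjusted p between 0.000298 and 0.0147. That of MT2A held in 10 of 13, with adjusted p between 0.00257 and 0.171, and was lost without untreated library 1 (adjusted p = 0.0508), untreated library 4 (0.171) or day 3 library 10 (0.0985), by edgeR in each case.

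**Figure D1:**
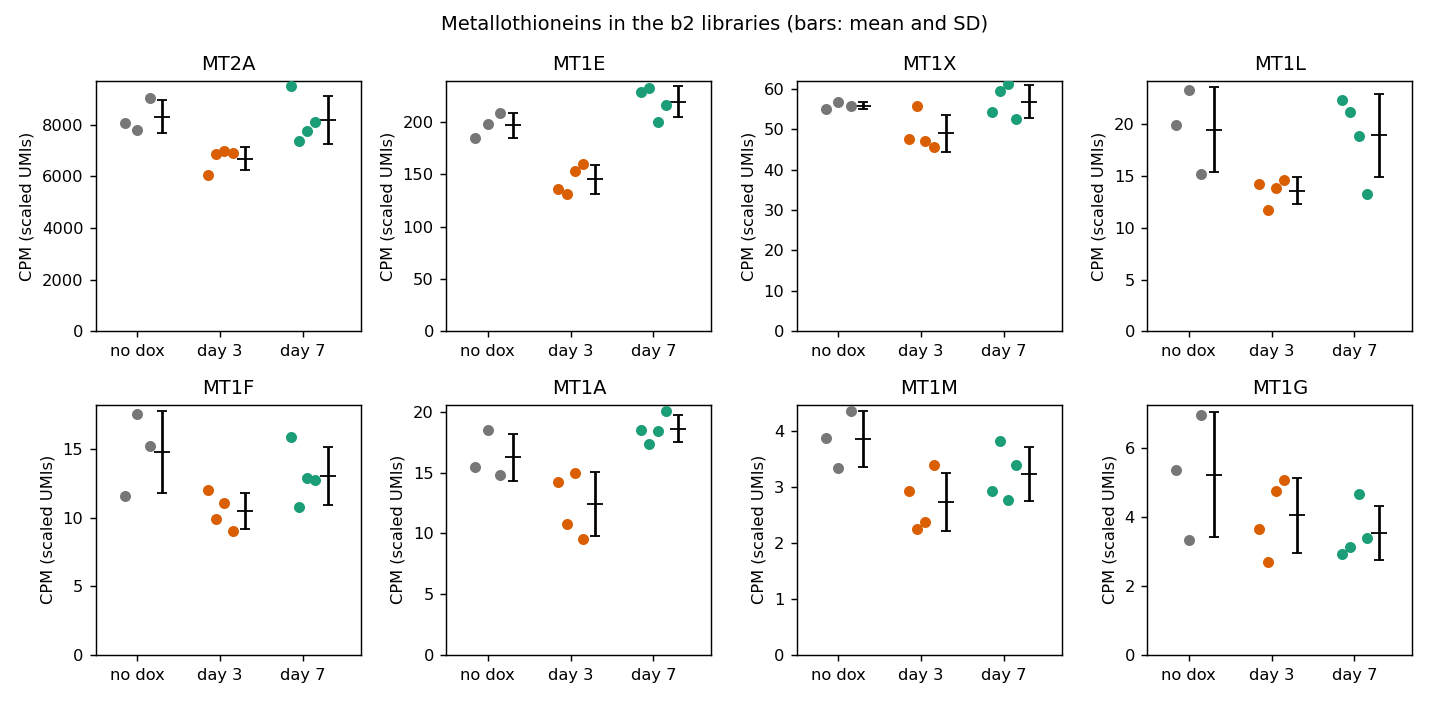
CPM of each metallothionein in the b2 libraries of the table with day 3, with 1 point per library for no doxycycline (n = 3), day 3 (n = 4) and day 7 (n = 4), and the mean and SD beside them. The day 3 points of MT2A and MT1E lie below all untreated and all day 7 points.

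By day 7 in b2, MT1E, MT2A and MT1A were above their day 3 levels. In the table with day 3, MT1E averaged 219 ± 14.8 CPM at day 7 (n = 4) and 145 ± 13.6 CPM at day 3 (SD, n = 4), and it rose by 0.60 ± 0.08 on the log2 scale from day 3 to day 7 (1.51-fold; adjusted p = 3.94e-06, edgeR). MT2A had 9522, 7357, 7744 and 8121 CPM in the day 7 libraries 17 to 20, all above the 6036 to 6967 CPM of the day 3 libraries. It rose by 0.29 ± 0.07 (1.22-fold; adjusted p = 0.0171), and lost this call without day 3 library 10 (adjusted p = 0.0910). MT1A had 17.4 to 20.1 CPM at day 7, against 9.58 to 15.01 CPM at day 3. It rose by 0.56 ± 0.17 (1.47-fold; adjusted p = 0.0476), a call that held in 2 of 14 alternatives, with adjusted p between 0.0431 and 0.144. Of the 8 libraries at day 3 and day 7, leaving out any but day 3 library 12 ended it. These were 3 of 8 members called higher, where 2.76% of the 10586 genes tested were called higher, and none was called lower. The other 5 members had log2 changes between -0.14 (MT1G) and 0.46 (MT1L), and the median over all 8 was 0.29, against 0.007 over all genes tested. This comparison and that of day 3 with no doxycycline use the same day 3 libraries, so they are not independent of each other.

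Set against no doxycycline in the same b2 libraries, day 7 showed no metallothionein past the threshold. By edgeR in the table with day 3, 0 of 8 members were called, with 0 at an unadjusted p under 0.05, where 15.6% of the 10586 genes tested were called. Limma-voom likewise called 0 of 8 and DESeq2 0 of the 7 it gave an adjusted p. MT2A averaged 8186 ± 944 CPM at day 7 (n = 4), against 8311 ± 645 CPM without doxycycline (SD, n = 3), a log2 change of -0.02 with a 95% interval between -0.19 and 0.14. MT1E averaged 219 ± 14.8 CPM at day 7, against 197 ± 11.8 CPM without doxycycline, a log2 change of 0.15 with an interval between -0.01 and 0.31. The counts of the same libraries in the day 7 table gave log2 changes of 0.02 ± 0.09 for MT2A and 0.18 ± 0.09 for MT1E in the fit that keeps b1 and b2 apart. There 0 of 8 were called by edgeR and limma-voom and 0 of 7 by DESeq2, and 1 of 8 had an unadjusted p under 0.05 by edgeR, where 14.3% of the 13371 genes tested were called.

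The comparison the series was built on, day 7 against no doxycycline over b1 and b2 with a batch term, called 1 of 8 members, MT1E, where 8.43% of the 12449 genes tested were called higher. MT1E had 231.1 CPM in the b1 library at day 7, against 106.1, 104.8 and 121.5 CPM in the b1 libraries without doxycycline. In b2 it had 202.7, 173.7, 160.3 and 182.9 CPM at day 7, against 149.0, 172.4 and 155.6 CPM without doxycycline. The b1 groups stood apart, and the b2 groups overlapped. MT1E rose by 0.44 ± 0.14 (1.36-fold; adjusted p = 0.0485, edgeR), a call that held in 8 of 21 alternatives, with adjusted p between 0.00698 and 0.199. Of the 11 libraries, leaving out any but untreated b2 library 2 or b2 library 19 at day 7 ended it. Without the b1 library at day 7 the log2 change was 0.18 ± 0.08 (adjusted p = 0.137). The median change of the 8 members was 0.25, against -0.02 over all genes tested, and MT2A had 0.24 ± 0.13 (adjusted p = 0.249, edgeR).

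The single b1 library at day 7 held the highest level of 6 of the 8 members in the day 7 table, the exceptions being MT1A and MT1G. For MT1X, MT1F and MT1L, untreated b1 libraries already lay above every b2 library of that table. The share of all genes highest in the b1 library at day 7 was not computed. MT2A had 11611 CPM in it, against 7797, 6743 and 6614 CPM in untreated b1 libraries, while in b2 it had 8092, 6262, 6300 and 6873 CPM at day 7, against 6515, 6311 and 7669 CPM without doxycycline. MT1M, a minor member, had 10.4 CPM (26 UMIs) in the b1 library at day 7, against 1.95 to 2.94 CPM (5 to 13 UMIs) in untreated b1 libraries, and in b2 2.14 to 2.68 CPM at day 7, against 2.55 to 3.60 CPM without doxycycline. Within b1, MT1E rose by 1.06 ± 0.13 (2.08-fold; adjusted p = 3.27e-06, edgeR), MT2A by 0.72 ± 0.13 (1.65-fold; adjusted p = 0.00240) and MT1M by 1.94 ± 0.41 (3.85-fold; adjusted p = 0.00344). Limma-voom called the same 3, and DESeq2 called MT1E and MT2A among the 4 members it gave an adjusted p, and not MT1M. These 3 of 8 stood beside 3.56% of 13371 genes called higher, and all 8 log2 changes were above 0, with a median of 0.65 and values between 0.47 and 0.88 for the 5 members not called. Over all genes tested, 52.4% of the log2 changes within b1 were below 0. With 1 library, the fit assumes that it varies like the other groups, and b1 has no other library at day 7 to check it against.

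Set against b2, the log2 change of the single b1 library at day 7 was larger for the same 3 genes. The tag and that library cannot be told apart, and no alternative could leave it out. The difference of the log2 changes, b1 minus b2, was 0.88 ± 0.15 for MT1E (adjusted p = 0.00140), 0.70 ± 0.16 for MT2A (adjusted p = 0.0246) and 2.25 ± 0.51 for MT1M (adjusted p = 0.0150) by edgeR's interaction test, where 1.02% of the 13371 genes tested were called in this direction. MT1E kept the call in 17 of 17 alternatives (adjusted p between 2.35e-05 and 0.0111) and MT1M in 15 of 15 (0.0119 to 0.0381), where DESeq2 gave it no adjusted p. MT2A kept it in 15 of 17 (0.000127 to 0.0687), and lost it without untreated b1 library 2 (adjusted p = 0.0687) or b2 library 19 at day 7 (0.0597). The other 5 members had differences between 0.25 and 1.22, none called. The b1 library at day 7 was also among the shallow ones, with 2769069 UMIs, close to the 2573290 of untreated b1 library 2, in which MT2A had 6743 CPM. The b1 library at day 7 stood apart from untreated b1 libraries in some summed markers too. Endothelial markers (2 of 6 listed in the day 7 table, PECAM1, CDH5, VWF and KDR not among them) had 106 CPM in it. In untreated b1 libraries they had 70.1 to 72.5 CPM. The 106 CPM was mostly 1 gene, EGFL7, since TIE1 had at most 19.4 CPM in any library of that table. Epithelial markers (6 of 8 listed, KRT5 and CDH1 not among them) had 802 CPM in the b1 library at day 7, against 1075 to 1131 CPM in untreated b1 libraries. In b2 they had less, 646 to 695 CPM at day 7 and 687 to 720 CPM without doxycycline. These sums were mostly 1 gene, KRT18, with 556 to 1003 CPM over all libraries of that table. The part of these markers in the metallothionein levels was not tested.

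**Figure D2:**
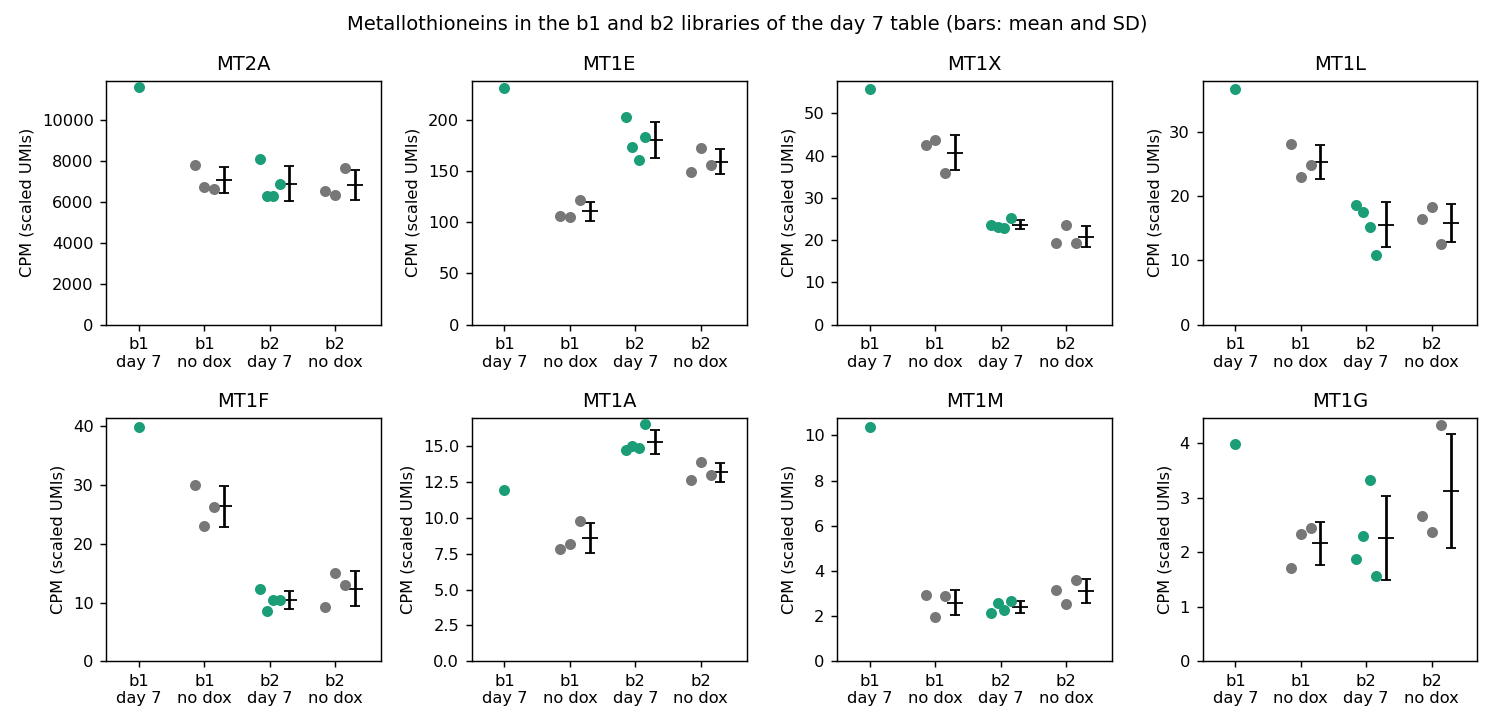
CPM of each metallothionein in the day 7 table, with 1 point per library for b1 at day 7 (n = 1), b1 without doxycycline (n = 3), b2 at day 7 (n = 4) and b2 without doxycycline (n = 3), and the mean and SD beside groups of several libraries. The b1 library at day 7 is the highest point for MT2A, MT1E, MT1X, MT1L, MT1F and MT1M.

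**Figure D3:**
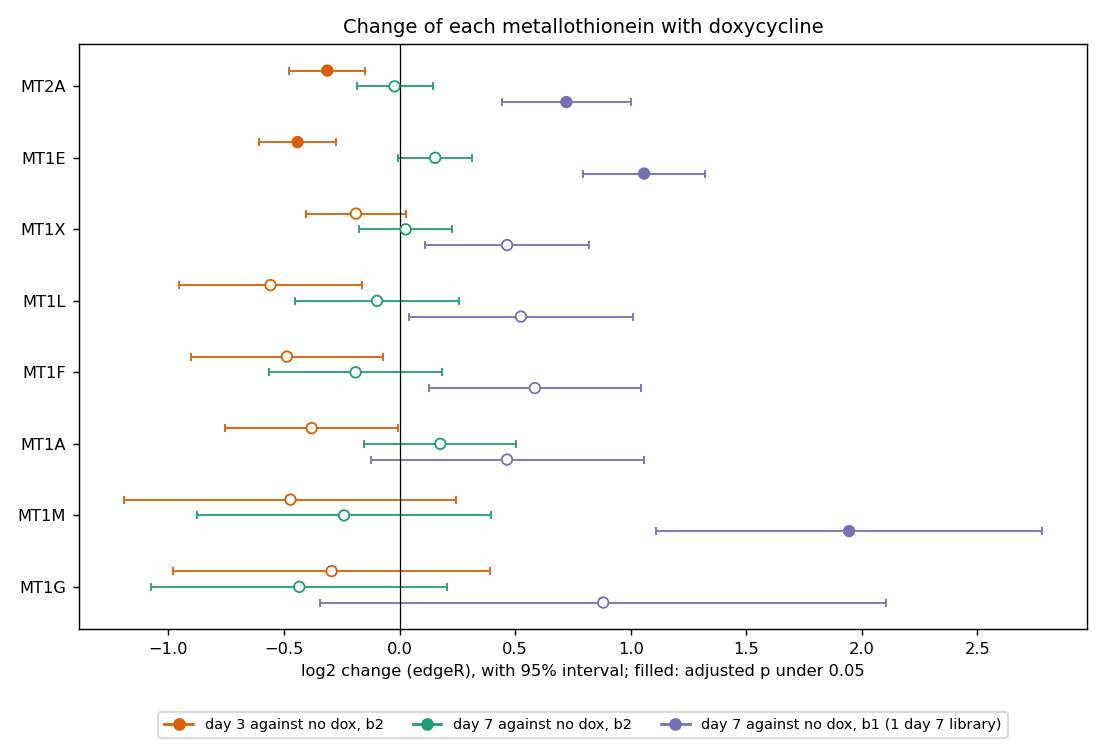
Log2 change of each metallothionein with its 95% interval, for day 3 against no doxycycline in b2, day 7 against no doxycycline in b2 (both from the table with day 3) and day 7 against no doxycycline in b1 (day 7 table, 1 library at day 7). Filled points passed the adjusted p of 0.05: MT2A and MT1E lie left of 0 at day 3, and MT2A, MT1E and MT1M lie right of 0 in b1 at day 7.

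The makeup of the minor members differed between the tags before any doxycycline. In untreated libraries MT1E had 149.0 to 172.4 CPM in b2 and 104.8 to 121.5 CPM in b1, a log2 difference of 0.52 ± 0.09 (b2 over b1; adjusted p = 4.87e-05, edgeR), and MT1A 12.6 to 13.8 CPM in b2 and 7.84 to 9.76 CPM in b1, a difference of 0.61 ± 0.18 (adjusted p = 0.00762). The other way round, MT1F had 9.22 to 14.9 CPM in b2 and 23.0 to 29.9 CPM in b1 (-1.08 ± 0.17; adjusted p = 1.16e-05), MT1X 19.4 to 23.7 CPM in b2 and 35.9 to 43.7 CPM in b1 (-0.93 ± 0.13; adjusted p = 1.41e-06), and MT1L 12.6 to 18.4 CPM in b2 and 23.0 to 28.2 CPM in b1 (-0.65 ± 0.17; adjusted p = 0.00357). The b2 and b1 libraries of these 5 called genes did not overlap, and the share of all genes without overlap was not computed. MT2A averaged 6832 ± 732 CPM in b2 and 7052 ± 649 CPM in b1 (SD, n = 3 each), a log2 difference of -0.04 ± 0.10 (adjusted p = 0.764), whose direction turned in 3 of 15 alternatives, among them scaling by library size alone (0.02). The 5 of 8 members called, 2 higher and 3 lower, stood beside 44.3% of the 13371 genes tested (22.5% higher and 21.8% lower), so calls were common in that comparison.

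**Figure D4:**
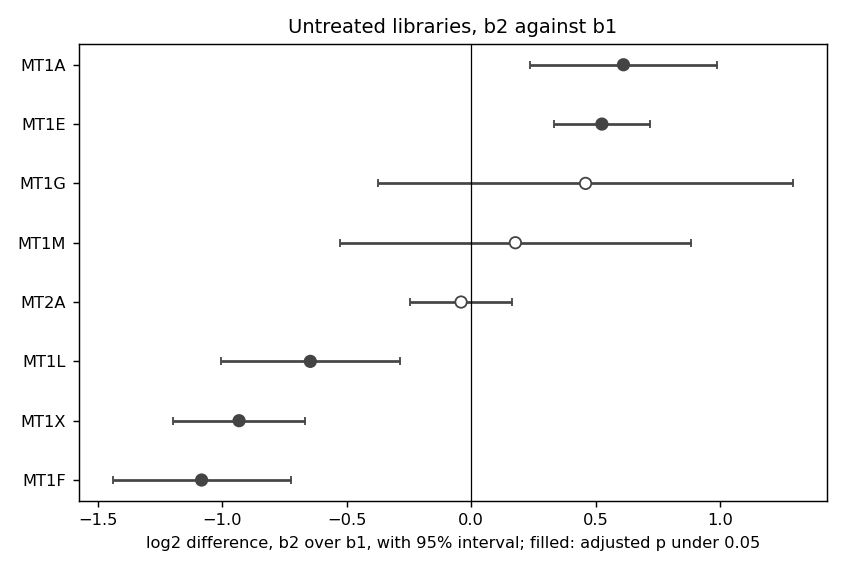
Log2 difference between untreated b2 and untreated b1 libraries (3 each, day 7 table) for each metallothionein, with its 95% interval, where positive values are higher in b2. Filled points passed the adjusted p of 0.05: MT1A and MT1E lie above 0, and MT1L, MT1X and MT1F below.

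MT1X depends on which table is read. For the 7 b2 libraries that both tables hold, the table with day 3 listed 1.79 to 2.37 times as many MT1X UMIs as the day 7 table (median 2.14). The median ratio was 1.01 for both MT2A and MT1E, 1.02 for MT1A, 1.03 for MT1F, 1.00 for MT1L, 1.07 for MT1M and 1.29 for MT1G, the last on 7 to 22 UMIs. Between libraries the ratio of MT1E ranged from 0.927 to 1.11. Of 7689 genes that averaged 50 UMIs or more over these 7 libraries, 1.05% had a ratio of at least 1.5, and the median ratio was 0.948. In untreated b2 libraries MT1X had 19.4 to 23.7 CPM in the day 7 table and 55.0 to 56.8 CPM in the other, on scales set apart, while b1 was counted in the day 7 table alone, at 35.9 to 43.7 CPM. The MT1X difference between b2 and b1, its direction as well as its size, therefore rests on 1 of 2 countings. The part of the counting in it was not tested. The changes of MT1X with doxycycline in b2, each read within a table, were small in both: 0.03 ± 0.10 in the table with day 3 and 0.17 ± 0.13 in the day 7 table at day 7.

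**Figure D5:**
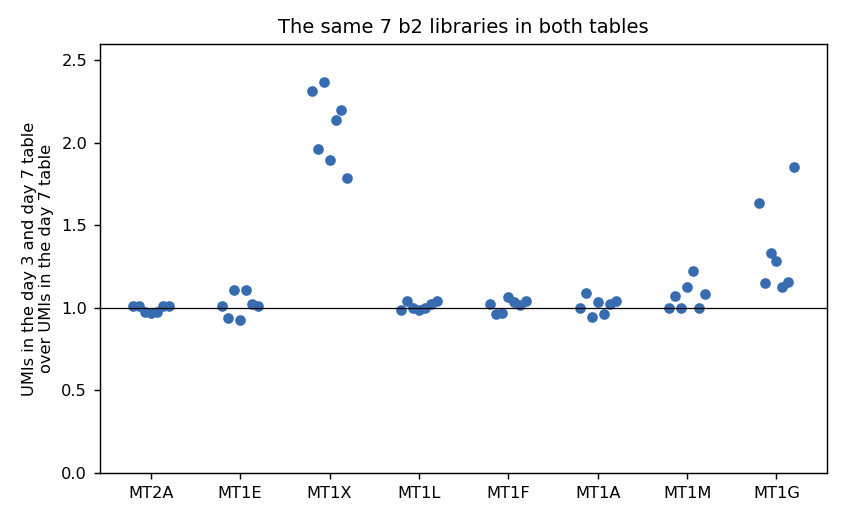
UMIs of each metallothionein in the table with day 3 divided by those in the day 7 table, with 1 point for each of the 7 b2 libraries both hold, and a line at 1. MT1X lies between 1.79 and 2.37, and the points of MT2A, MT1E, MT1L, MT1F and MT1A lie close to 1.

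Genes that control or share the metals of the metallothioneins were read from lists that were chosen with earlier results of these data known. MTF1, the zinc sensor that activates metallothionein genes, did not pass the threshold at day 3 (log2 change -0.12 ± 0.24) or day 7 (-0.08 ± 0.20). The zinc exporter SLC30A1, another MTF1 target, had 0.42 ± 0.26 and 0.12 ± 0.34, and SLC39A10, a zinc importer that MTF1 represses, -0.32 ± 0.43 and -0.28 ± 0.20, none of them called by edgeR. The day 3 values are from b2 in the table with day 3, and the day 7 values from the day 7 table over both tags. MTF1, SLC30A1 and SLC39A10 are sparse in the table with day 3, with 15 to 54, 20 to 60 and 3 to 15 UMIs per library. They had 12 to 54, 3 to 45 and 7 to 45 in the day 7 table, where the b1 library at day 7 had 3 UMIs of SLC30A1. SLC39A10 had 23 to 45 UMIs in untreated b2 libraries of the day 7 table, and 8 to 12 in the same libraries of the other. Its day 3 and day 7 values therefore rest on unlike countings. For SLC30A1 in b2 library 17 at day 7 the tables held 11 and 25 UMIs. MTF1 had 18 to 40 and 17 to 40 in the untreated b2 libraries. In b2 of the table with day 3, SLC30A1 averaged 12.3 ± 3.74 CPM at day 7 (n = 4), against 8.26 ± 2.21 CPM without doxycycline (SD, n = 3).

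At day 3, 1 of 6 tested genes of MTF1 and its zinc targets rose, NDRG1, a stress-induced gene also driven by hypoxia (1.68 ± 0.11; adjusted p = 6.66e-10, edgeR), and none fell. Of the SLC30 zinc exporters 0 of 6 were called, and of the SLC39 zinc importers 1 of 11, SLC39A9, which rose by 0.38 ± 0.11 (adjusted p = 0.0431). Of 15 copper genes 2 fell, PRNP, the prion protein, by 0.32 ± 0.09 and CCS, the copper chaperone of superoxide dismutase, by 0.44 ± 0.12. Of 11 iron genes 1 rose, SLC25A37, the mitochondrial iron importer (0.30 ± 0.08). Of 9 genes of the glucocorticoid receptor and its targets, a second input to metallothionein promoters, 3 rose and none fell: SGK1, a kinase (0.65 ± 0.12), DUSP1, a MAP kinase phosphatase (0.44 ± 0.10), and PER1, a clock gene (0.57 ± 0.15). Of 13 genes of glutathione and thioredoxin, the other thiol systems of the cell, SRXN1 rose (0.33 ± 0.09) and SLC7A11, the cystine importer, fell by 2.25 ± 0.51. These counts stand beside 3.51% of all tested genes called at day 3.

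From day 3 to day 7, NDRG1 fell by 0.96 ± 0.10 as the 1 call among the 6 MTF1-list genes, and none of the 6 zinc exporters, 11 zinc importers or 13 thiol genes was called by edgeR, where 5.07% of all genes tested were called in either direction. PRNP rose by 0.45 ± 0.08 among 15 copper genes and HMOX1, heme oxygenase, by 0.96 ± 0.12 among 11 iron genes. Of the 9 glucocorticoid genes DUSP1 rose by 0.66 ± 0.09 and CEBPD fell by 0.78 ± 0.08. At day 7 against no doxycycline over both tags, 0 of 8 MTF1-list genes and 0 of 7 zinc exporters were called by edgeR. Of 11 zinc importers SLC39A9 (0.32 ± 0.09) and SLC39A14 (0.45 ± 0.14) rose, and SLC39A4 fell by 0.59 ± 0.13. Of 16 copper genes 4 rose and none fell over both tags, led by STEAP3, a metalloreductase (0.78 ± 0.14), COX17, a copper chaperone of cytochrome oxidase (0.31 ± 0.08), and SCO2, another (0.37 ± 0.10). Of 11 iron genes 3 rose, HMOX1 (0.95 ± 0.11), SLC25A37 (0.34 ± 0.08) and ACO1, which also senses iron (0.25 ± 0.08). Of 10 glucocorticoid genes DUSP1 (1.01 ± 0.10) and ERRFI1 (0.57 ± 0.17) rose, and of 12 thiol genes SLC7A11 fell by 1.86 ± 0.40. These stand beside 15.7% of all tested genes called at day 7. The counts differed when b2 was kept apart in the joint fit. Of the 8 MTF1-list genes NDRG1 rose (0.75 ± 0.09) and SELENOW fell by 0.31 ± 0.08, and of 17 copper genes STEAP3 rose (0.80 ± 0.17) while CCS fell by 0.46 ± 0.11 and SOD3, a secreted superoxide dismutase, by 1.02 ± 0.28, beside 14.3% of all tested genes. There 1 of 11 zinc importers rose and 1 fell, 3 of 12 iron genes rose and 1 fell, 3 of 11 glucocorticoid genes rose and 1 fell, 3 of 12 thiol genes rose and 2 fell, and 0 of 7 zinc exporters were called by edgeR. The b2 counts in the table with day 3 also called NDRG1 and STEAP3 higher and CCS and SOD3 lower. SELENOW was not among the calls there, where only 6 of the 8 MTF1-list genes were tested at all.

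In b1 alone, where MT1E, MT2A and MT1M rose, 0 of the 8 MTF1-list genes and 0 of 7 zinc exporters were called by edgeR, where 6.94% of all tested genes were called in either direction. The day 7 change of NDRG1 differed between the tags (-1.03 ± 0.16, b1 minus b2; adjusted p = 0.000410). Of 17 copper genes 4 rose and PRNP fell by 0.53 ± 0.14, of 12 iron genes 3 rose, led by SLC25A37 (0.67 ± 0.12), and of 12 thiol genes none was called. Of 11 glucocorticoid genes DUSP1 (0.71 ± 0.16) and CEBPD rose and NR3C1 fell. SLC39A14, an importer of zinc, iron and manganese, rose by 1.02 ± 0.15 (adjusted p = 0.000180) as the 1 call among 11 zinc importers, and its day 7 change was 0.80 ± 0.18 larger in b1 than in b2 (adjusted p = 0.0184). CEBPD, an acute-phase transcription factor in the glucocorticoid list, rose by 1.33 ± 0.13 in b1 and fell by 0.54 ± 0.09 in b2, a difference of 1.87 ± 0.16 (adjusted p = 2.50e-08), while NR3C1, the glucocorticoid receptor itself, fell by 0.96 ± 0.20 in b1.

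Across the 11 b2 libraries of the table with day 3, the levels of MT2A and MT1E moved together (Pearson r of log2 CPM = 0.789). In the day 7 table, with each tag centred on its untreated mean, r was 0.833. There the single b1 library at day 7 stood apart, with 11611 CPM of MT2A, against 6614 to 7797 CPM in untreated b1 libraries. It had 231 CPM of MT1E, against 105 to 122 CPM. Values of r without that library were not computed, so all those of the day 7 table may rest on it. Genes outside the family whose pattern was most like that of MT2A included PIK3CD (r = 0.908) and ZC3H18 (0.907), both among the top 3 of 6271 genes with at least 20 CPM on average in the table with day 3. For MT1E they were FAM207A (0.971), ANPEP (0.959) and MRPL15 (0.919), for MT1X DUSP7, EFNB1 and ALDH9A1 (0.865 to 0.921), for MT1L TRIM59, ASXL2 and NDEL1 (0.815 to 0.932), for MT1A SSSCA1 (0.907) and MON1A (0.886) among others, and for MT1F RHBDD2, TSPYL2 and TTC17 (0.855 to 0.953). In the day 7 table none of these genes was again among the top 3, where those for MT2A were DHX30, ATP6V1F and TBCB (0.957 to 0.959) and those for MT1E RNF121, SS18 and ITPR3 (0.947 to 0.969). The points share libraries, groups and depth, so these values describe the libraries and carry no test.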

How the data were processed

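Bulk MARS-seq was done on 15 samples, grouped by their titles. The deposited data were UMI counts in 2 tables, raw whole numbers per gene and library, which the authors made with bcl2fastq, cutadapt, STAR 2.4.2a, HTSeq and DESeq2 on hg38 per the submitters' processing notes. Another 55 columns of per-sample values were not used. In the table with day 3, 2 untreated columns have names that fit samples of either tag, and they were taken as b2, as the other columns of that table are.

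Each table was fitted whole with edgeR 4.0.16 (R 4.3.3): filterByExpr, TMM, robust quasi-likelihood test, Benjamini-Hochberg adjustment over all genes, threshold 0.05. The day 7 comparison had a batch term, and the comparisons of b1 and b2 had 1 mean per group and tag. Intervals are 95% and cover the spread between libraries as modelled. The common biological coefficient of variation was 0.0843 to 0.0991. By chi-square per degree of freedom, 27 pairs of replicate libraries differed 1.59 to 7.06 times as much as sampling noise, so none was counted as a repeat. Pairs of libraries that both tables hold were counted once in each. Tested on simulated data, 1.5-fold and 2-fold changes were recovered at 41.8% and 77.6% for day 3, 61.2% and 83.6% for day 7 against day 3, 70.1% and 91% for day 7, 56.7% and 62.7% for b2 against b1, and 13.4% and 43.3% for the interaction of tag and day 7. Alternatives were DESeq2 1.42.0, limma-voom (limma 3.58.1), other scalings and filters, no batch term, b2 alone, pseudogene UMIs added to their parent genes (chosen after seeing the data), a replicate block and leaving out each library. Same-numbered untreated b1 and b2 libraries did not deviate together (r = 0.00645 and 0.00716), so their numbers do not pair them.

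CPM used TMM-scaled totals. Likeness used log2 CPM with a prior count of 2. Named genes were all members, MTF1, SLC30A1, SLC39A10 and at most 3 called genes per list and comparison by smallest p, plus the genes most like a member in pattern, of which a few are left out here. The members and lists were chosen with earlier results of these data known. Plots used matplotlib 3.10.9 (Python 3.11.15).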

Additional observations from a re-analysis of the deposited data

Results flagged for a closer look

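In 2 of 24 groups of 4 libraries checked, 1 library stood apart from the rest, where chance flags about 1 group in 20. The 4 b2 libraries at day 7 were checked once in each table, so the 24 groups are not independent. MT2A in day 3 library 10 was the lowest of its group, at 6036 CPM, and the MT2A calls at day 3 were lost without it. MT1A in b2 library 20 at day 7 was the highest of its group in the day 7 table, at 16.5 CPM, and was not flagged in the other table.

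The day 7 change differed between b1 and b2 by the interaction test for MT1E (0.88 on the log2 scale, b1 minus b2), MT2A (0.70) and MT1M (2.25). It rests on 1 b1 library at day 7.

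The day 7 and day 3 changes in b2 differed by edgeR's test of day 7 against day 3 for MT1E (0.60 on the log2 scale, day 7 minus day 3), MT1A (0.56) and MT2A (0.29).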

How the results depend on the processing

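The fall of MT1E at day 3, its rise from day 3 to day 7, the difference of its day 7 change between b1 and b2, and the differences of MT1E, MT1F, MT1X and MT1L between untreated b2 and b1 kept their direction and their side of the threshold under every alternative run. For MT1X, no alternative could read b1 from the other counting, since b1 is in the day 7 table alone. At day 3, leaving out 1 library called between 191 and 272 genes (372 in all libraries) and 1 or 2 metallothioneins. From day 3 to day 7 it called between 1 and 3 metallothioneins. At day 7 against no doxycycline it called between 0 and 2 metallothioneins, and 0 were called with library size alone, without the batch term, with b2 libraries alone or when b2 was read from the other table. Without the batch term 323 genes were called at day 7 by edgeR (1955 with it). For the difference between b1 and b2, leaving out 1 library called between 195 and 687 genes (326 in all libraries, 687 without b2 library 17 at day 7), and limma-voom called 157. It could not be fitted without the b1 library at day 7.

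Values that turned direction were not called by edgeR in either setting. At day 7, MT1F was at -0.0029 with library size alone, -0.29 without the batch term, -0.23 in b2 alone and -0.19 in the other table, and ranged from -0.24 (without the b1 library at day 7) to 0.26 on leaving out 1 library. MT1L was at -0.083 without the batch term, -0.052 in b2 alone and -0.098 in the other table, with a range of -0.060 to 0.26. MT1M was at -0.30 in b2 alone and -0.24 in the other table, with a range of -0.30 to 0.74. The lowest value of MT1L and MT1M was again that without the b1 library. MT1X was at -0.044 without the batch term and MT2A at -0.022 in the other table. MT1G was at -0.020 in the main fit and turned above 0 only on leaving out 1 library, with a range of -0.32 to 0.21. It kept its direction in b2 alone (-0.31) and in the other table (-0.43). MT2A in untreated b2 against b1 was at 0.019 with library size alone and ranged from -0.13 to 0.035 on leaving out 1 library. The cause was not tested. Calls were gained by MT1X at day 7 without untreated b2 library 2 (adjusted p = 0.0451, edgeR), by MT1L from day 3 to day 7 without day 7 library 20 (0.0484) and by MT1F in the test of the day 7 change in b1 against b2 without untreated b2 library 1 (0.0456).

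A replicate block on the untreated libraries called 6 metallothioneins between b2 and b1 (5317 genes, 6061 without the block), adding MT2A at -0.19 (adjusted p = 0.0191, edgeR), and the numbers do not pair the libraries. DESeq2 lost MT1A there (adjusted p = 0.0620) and gave no adjusted p for some sparse members. Adding pseudogene UMIs, chosen after seeing the data, changed no call. Depth limits MT1G and MT1M most.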

Other observations

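MT3, a metallothionein expressed mainly in brain and outside the symbol rule, was looked at after its values were seen. It had 2.55 to 3.24 CPM (9 to 14 UMIs) in untreated b2 libraries and 9.98 to 12.1 CPM (31 to 45 UMIs) in untreated b1 libraries, 3.80-fold lower in b2 (log2 difference -1.93 ± 0.26; adjusted p = 7.38e-07, edgeR). Its day 7 change was not called in either tag, at -0.19 ± 0.33 in b1 and -0.22 ± 0.30 in b2, and its level in the b1 library at day 7 was 9.56 CPM, against the 9.98 to 12.1 CPM of untreated b1 libraries.

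The pseudogenes MT2P1 and MT1XP1 are listed in the day 7 table alone, and MT1DP in both. MT2P1 had 20.7 CPM in the b1 library at day 7, against 9.76 to 14.4 CPM in untreated b1 libraries, and MT1XP1 had 5.98 CPM, against 2.44 to 4.66 CPM. Neither passed the threshold within b1 (adjusted p = 0.0818 and 0.412, edgeR).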
